A study of Mus musculus with 18 samples.

Results

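Camk2a, Slc17a7, Gad1 and Snap25 are 4 genes that define neurons of the cerebral cortex, and their chromatin was described here from the peaks of 15 chromatin immunoprecipitation sequencing (ChIP-seq) lists. Members were the peaks overlapping by at least 1 bp a fixed window around each gene on the mouse build mm39: chr18:61048000-61132000 for Camk2a (84.0 kb), chr7:44803000-44836000 for Slc17a7 (33.0 kb), chr2:70373000-70443000 for Gad1 (70.0 kb) and chr2:136545000-136635000 for Snap25 (90.0 kb). In all, 499 of 494083 listed peaks fell in the 4 windows. Of these, 113 were H3K27ac peaks, 77 H3K4me1 peaks, 197 PolII_S5P peaks and 112 MBD3 peaks, and 0 were TDG peaks.

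The material was frozen cerebral cortex from 3 female mice of the C57BL/6J strain, wild type, 14 weeks old and numbered 5, 7 and 9. From each animal came a library for the histone marks H3K27ac and H3K4me1, for RNA polymerase II phosphorylated at serine 5 of its tail (PolII_S5P), for MBD3 and for TDG. There was no treatment and no second genotype, so the comparisons run between antibodies, between genes and against the whole lists. The title of the series concerns TDG, MBD3/NuRD and active promoters, and the 4 genes serve here as loci known to be active in this tissue.

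Camk2a encodes the alpha subunit of calcium/calmodulin-dependent protein kinase II, a kinase of excitatory synapses. Slc17a7 encodes VGLUT1, which loads glutamate into synaptic vesicles of excitatory neurons. Gad1 encodes a glutamate decarboxylase that makes GABA in inhibitory neurons, and Snap25 encodes a SNARE protein needed for vesicle fusion in neurons of both kinds. H3K27ac lies on active promoters and enhancers, and H3K4me1 lies mainly on enhancers and along the flanks of promoters. Polymerase with phosphorylated serine 5 is found early in transcription, MBD3 is a subunit of the NuRD remodelling and deacetylase complex, and TDG is a glycosylase that removes thymine from mismatches and oxidized methylcytosine.

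Positions below are distances in kb from the window start. Each window exceeds the gene's length in the GRCm38.p6 gene table by 20.8 to 29.3 kb, and gene starts on mm39 were not located here. A peak near a window edge may therefore belong to a neighbour, such as Arsi 5.80 kb before and Slc6a7 7.22 kb after Camk2a. Slc17a7 is 12.2 kb long against a window of 33.0 kb, with Pih1d1 3.86 kb before it and Gfy 0.21 kb after it. Peaks well inside that window may thus also belong to a neighbour. Values given below for a gene are those of its window. Gad1 overlaps Gad1os and Snap25 overlaps Gm32659 in that table, and peaks carry no strand.

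Promoter sequence is shown for Slc17a7 and Gad1 only, because the promoter set used had no entry for Camk2a or Snap25. Slc17a7 and Gad1 also lay at opposite ends in H3K27ac coverage relative to PolII_S5P, as the values below show. The 250 bases before the annotated start are RefSeq sequence on GRCm38.p6, chr7:45163671-45163920 and chr2:70561879-70562128, both on the plus strand. They are written 5′ to 3′ with each CpG dinucleotide in capitals. Peaks on mm39 were not placed on them, since the builds differ.
Slc17a7: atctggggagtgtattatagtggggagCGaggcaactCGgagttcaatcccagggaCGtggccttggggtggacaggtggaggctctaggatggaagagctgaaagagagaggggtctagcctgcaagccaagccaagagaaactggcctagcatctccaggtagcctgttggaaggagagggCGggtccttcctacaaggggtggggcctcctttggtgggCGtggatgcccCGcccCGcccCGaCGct
Gad1: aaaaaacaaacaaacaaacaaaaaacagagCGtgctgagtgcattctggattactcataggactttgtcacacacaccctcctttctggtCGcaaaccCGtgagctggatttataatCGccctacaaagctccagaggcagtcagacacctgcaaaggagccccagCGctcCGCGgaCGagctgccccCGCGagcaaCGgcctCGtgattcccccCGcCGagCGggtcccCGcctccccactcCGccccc
The Slc17a7 stretch held 9 CpG and 61.2% G or C, and the Gad1 stretch held 17 CpG and 58% G or C. At least 9 CpG were found in 40.3% and at least 17 CpG in 23.5% of the 32851 promoter stretches of this length, whose median was 6. The GC box letters GGGCGG, read on both strands, occurred 3 times for Slc17a7 and once for Gad1, and 32.7% of all stretches held them. The letters TATAAA, read on both strands, occurred 0 times for Slc17a7 and once for Gad1, and 12.4% of all stretches held them. These matches describe letters only.

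**Figure D1:**
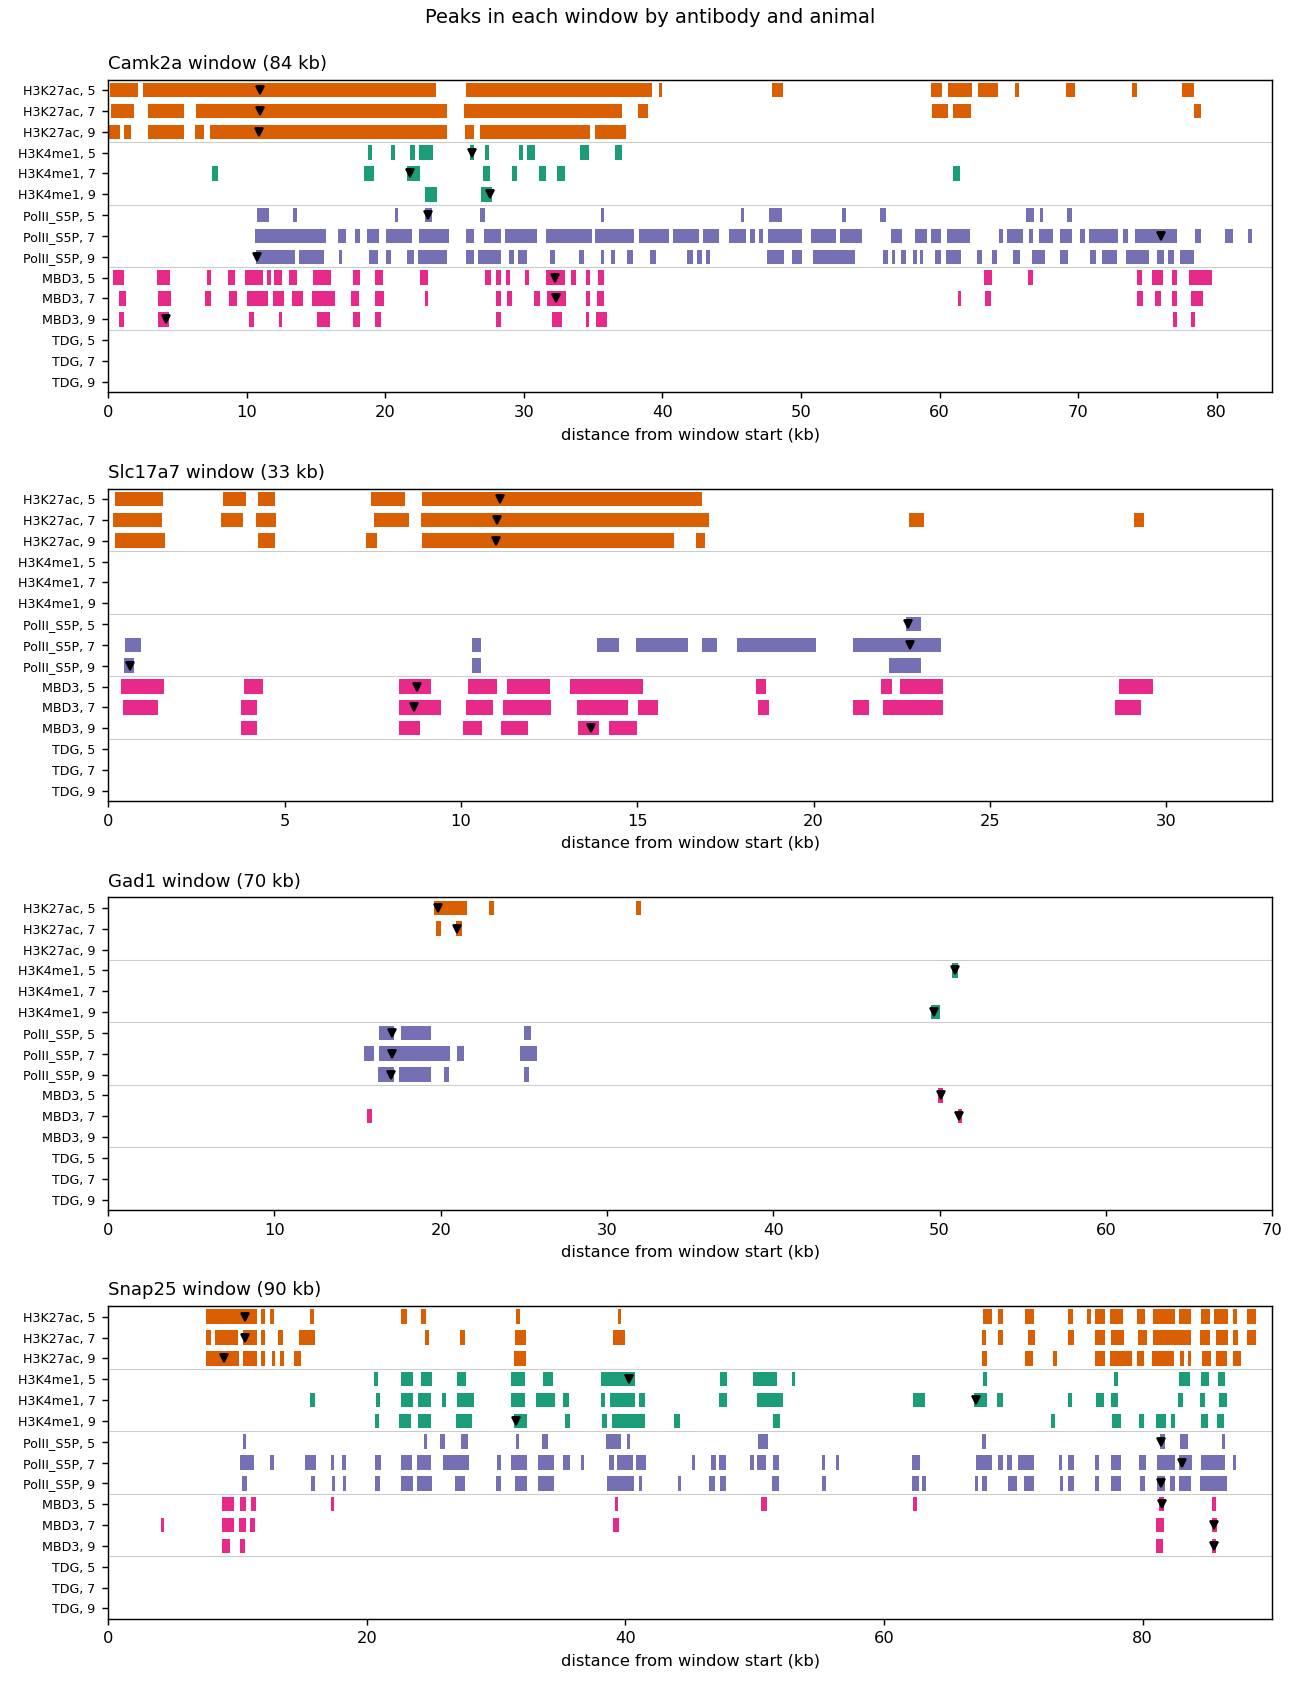
Peaks along the 4 windows, in kb from the window start, with 1 row for each antibody and animal. Boxes span peaks clipped to the window and black triangles mark the summit of the strongest peak by fold enrichment; the Gad1 window holds PolII_S5P peaks in all 3 animals near 17 kb but few other peaks, and the TDG rows are empty.

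Camk2a carried a long H3K27ac domain in every animal. H3K27ac peaks covered 52.2% of the window in animal 5, 44.4% in animal 7 and 38.8% in animal 9, against 2.60%, 2.57% and 1.95% of the genome. The window held 12, 8 and 8 H3K27ac peaks. This coverage was above that of 99.9%, 99.8% and 99.8% of consecutive genome tiles of the same length.

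The domain's strongest H3K27ac peak was also one of the widest peaks of the mark anywhere. It was 21200 bp wide in animal 5, 18082 bp in animal 7 and 17125 bp in animal 9, which placed it 7th, 6th and 4th by width in the whole lists. Its summit lay 10.9 kb into the window in every animal, and the 3 summits fell within 41 bp. The authors' fold enrichment there was 13.0, 11.9 and 6.86, a rank of 476 of 66989, 648 of 68887 and 4336 of 58679. So the peak stood higher by width than by height, most of all in animal 9. A second H3K27ac site ran from 25.7 to 39.3 kb, with a fold enrichment of 6.56, 10.3 and 4.73, and another at the window's edge ended at 2.13 kb. These were the 3 of 13 merged H3K27ac sites with peaks in all 3 animals.

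PolII_S5P peaks at Camk2a were spread over most of the window. They numbered 13 in animal 5, 36 in animal 7 and 41 in animal 9, and covered 6.64%, 58.1% and 36.6% of the window. The list of animal 5 was the shortest, with 4409 PolII_S5P peaks against 19816 and 12691, and with the 3 lists shortened to that length the mean count fell from 30 to 6.67. When the window was cut into 10 equal bins, 8 held a PolII_S5P peak in all 3 animals and the first bin held none. The site from 10.6 to 15.7 kb, which holds the H3K27ac summit, had PolII_S5P peaks in all 3 animals with a fold enrichment of 3.74, 5.64 and 5.54. It was the first of 9 PolII_S5P sites shared by all 3 animals, and the last ended at 69.6 kb. H3K27ac left the seventh bin empty, whereas PolII_S5P covered 8.8%, 55.6% and 53.7% of it in animals 5, 7 and 9. The strongest PolII_S5P peak was at 23.1, 76.0 and 10.7 kb, with a rank of 2034, 1805 and 1667, so by fold enrichment no single PolII_S5P site led in every animal. By the authors' −log10 q-value the leading PolII_S5P peak was at 10.7, 10.8 and 10.7 kb, the site of the H3K27ac summit in each animal.

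MBD3 peaks at Camk2a lay mostly on H3K27ac. The window held 26, 23 and 13 MBD3 peaks covering 19.2%, 17.7% and 7.36%. Of the 27 merged MBD3 sites, 13 had peaks in all 3 animals. H3K27ac overlapped 23 of 26 MBD3 peaks in animal 5, 19 of 23 in animal 7 and 11 of 13 in animal 9. These shares were 88.5%, 82.6% and 84.6%, against 61.8%, 59.7% and 59.7% over the whole MBD3 lists. H3K27ac itself covered 52.2%, 44.4% and 38.8% of this window. MBD3 was listed in no animal between 42.0 and 58.8 kb, the sixth and seventh bins. The strongest MBD3 peak had its summit at 32.3 kb in animals 5 and 7 and at 4.19 kb in animal 9, with a fold enrichment of 11.0, 15.0 and 7.05. By −log10 q-value it was at 4.196, 32.3 and 4.19 kb. The median fold enrichment of MBD3 peaks in the window was 4.90, 4.85 and 4.38, below the medians of the whole lists, 6.00, 5.62 and 5.55.

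H3K4me1 at Camk2a had few peaks, and few of them recurred. It had 10, 8 and 2 peaks, covering 5.61%, 5.47% and 1.93% of the window. The strongest had a fold enrichment of 3.12, 3.18 and 2.90, which placed it 41.2%, 33.8% and 65.9% of the way down its list, but by −log10 q-value the leading peak stood at 20.1%, 6.23% and 25.1%. Coverage was 7.89, 4.79 and 3.93 times that of the genome, above that of 97.2%, 94.5% and 92.9% of tiles. Just 2 of 14 merged H3K4me1 sites had peaks in all 3 animals, at 21.5 to 23.7 kb and 26.9 to 27.7 kb. The nearest H3K4me1 peak to the H3K27ac summit was 7.78, 3.00 and 11.98 kb away.

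Slc17a7 combined H3K27ac and MBD3 over the same stretch and had no H3K4me1 peak. H3K27ac peaks numbered 5, 7 and 5 and covered 34.6%, 37.7% and 29.2% of the window. The strongest reached a fold enrichment of 9.48, 11.4 and 8.06 and ranked 2206, 805 and 2228, with its summit at 11.1, 11.0 and 11.0 kb. It was 7934, 8166 and 7133 bp wide and ranked 237, 207 and 177 by width. By fold enrichment the 3 animals thus placed the main H3K27ac summit within 121 bp, whereas by −log10 q-value the leading peak of animal 5 was at 0.886 kb. Of 7 merged H3K27ac sites, 4 were shared by all 3 animals.

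MBD3 covered 29.0%, 30.2% and 11.4% of the Slc17a7 window with 10, 11 and 6 peaks. That coverage was above that of 99.97%, 99.98% and 99.83% of tiles of this length. The strongest MBD3 peak lay at 8.74 and 8.68 kb in animals 5 and 7, just before the near edge of the main H3K27ac peak, and at 13.7 kb in animal 9, inside it. By −log10 q-value the leading MBD3 peak lay at 8.74, 8.68 and 8.62 kb. The fold enrichment of the strongest was 11.8, 20.5 and 9.36, with a rank of 6023, 790 and 6297. Within or touching the main H3K27ac site of 8.86 to 17.0 kb there were 13 MBD3 peaks over the 3 animals. At the H3K27ac summit itself MBD3 was not listed, and the nearest MBD3 peak ended or began 101, 112 and 146 bp away.

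PolII_S5P at Slc17a7 differed widely between animals. There were 1, 7 and 3 peaks covering 1.28%, 24.2% and 4.43% of the window. The only PolII_S5P site in all 3 animals lay from 21.1 to 23.6 kb, with a fold enrichment of 3.22, 6.36 and 2.21. At the H3K27ac summit no PolII_S5P peak was listed, and animals 7 and 9 had one 445 and 417 bp before it. H3K4me1 had 0 peaks in each animal, and the nearest was 75.6, 26.0 and 71.4 kb outside the window.

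Gad1 had polymerase peaks in every animal but, unlike Slc17a7, few peaks of H3K27ac and MBD3. PolII_S5P had 3, 4 and 4 peaks, covering 4.38%, 9.01% and 4.91% of the window. The strongest had a fold enrichment of 7.22, 8.39 and 9.14 and ranked 220, 687 and 243, within the top 4.99%, 3.47% and 1.91% of its list. Its summit lay at 17.1, 17.1 and 17.0 kb, within 60 bp across animals. The merged site spanned chr2:70389252-70393580, and a second shared PolII_S5P site lay from 24.8 to 25.8 kb. The other 8 of 10 bins held no PolII_S5P peak in any animal.

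H3K27ac at Gad1 had 3 peaks in animal 5, 2 in animal 7 and 0 in animal 9. They covered 3.71%, 0.933% and 0% of the window. That was 1.43, 0.363 and 0 times the coverage of the genome, above that of 80.2%, 63.0% and 0% of tiles. The strongest peaks reached a fold enrichment of 3.13 and 2.21, with a rank of 45510 and 66172. By fold enrichment these are peaks of the lower part of each list, 67.9% and 96.1% of the way down. By −log10 q-value the leading peaks stood at 40.3% and 86.3%, and the widest stood at 12.7% and 78.3% by width. In animal 9 the nearest H3K27ac peak was 48.3 kb outside the window. None of the 3 merged H3K27ac sites was shared by all animals, and the strongest PolII_S5P peak near 17 kb met an H3K27ac peak in animal 7 alone, at its far end. H3K4me1 had 1, 0 and 1 peaks and MBD3 had 1, 2 and 0 peaks, and no MBD3 or H3K4me1 site recurred in another animal. Their coverage was 0.711, 0 and 1.48 times that of the genome for H3K4me1 and 0.330, 0.584 and 0 times for MBD3. In bulk cortex a small number of cells with a mark and a weak mark in many cells cannot be told apart, which bears on Gad1 in particular as a gene of inhibitory neurons.

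By fold enrichment Snap25 had the highest-ranked H3K27ac peak of the 4 genes in every animal. H3K27ac peaks numbered 22, 22 and 19 and covered 18.3%, 19.6% and 16.4% of the window. The strongest had a fold enrichment of 15.0, 13.5 and 9.48 and ranked 199, 322 and 1095. Its summit lay at 10.6 kb in animals 5 and 7 and at 8.94 kb in animal 9, all within a merged site from 7.56 to 11.5 kb. Of 24 merged H3K27ac sites, 13 were shared by all 3 animals. Of these, 9 began beyond 67 kb, 3 ended by 16.0 kb and 1 lay from 31.4 to 32.3 kb, and no H3K27ac peak was listed from 45.0 to 63.0 kb.

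H3K4me1 at Snap25 was highest in the third to sixth of 10 equal bins of the window, where H3K27ac was low. It had 15, 23 and 17 peaks covering 13.9%, 19.6% and 13.8%. The strongest reached a fold enrichment of 4.58, 4.30 and 4.33 and ranked 755, 1644 and 1008, the best H3K4me1 rank of the 4 genes in each animal. In the fourth bin H3K4me1 covered 34.7 ± 11.9% and H3K27ac 9.0 ± 4.73% (SD, n = 3). In the second bin H3K4me1 covered 1.2 ± 2.1% and H3K27ac 41.1 ± 4.1%. The marks were not exclusive, since in the last bin H3K4me1 covered 19.8 ± 4.6% and H3K27ac 55.1 ± 8.1%. The main H3K27ac site carried no H3K4me1 peak, and the nearest was 9.95, 5.06 and 11.7 kb from the summit. Of the 27 merged H3K4me1 sites, 10 were shared by all 3 animals.

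PolII_S5P at Snap25 had 13, 39 and 33 peaks covering 6.59%, 29.9% and 22.7%. The strongest had a fold enrichment of 5.58, 11.6 and 8.93 and ranked 597, 207 and 261, with its summit at 40.3, 83.0 and 81.4 kb. By fold enrichment the strongest polymerase peak thus lay outside the main H3K27ac site in every animal, whereas by −log10 q-value it lay at 10.5 kb, inside that site, in animal 7. In animal 5 PolII_S5P peaks at 50.8 and 81.4 kb tied with the one at 40.3 kb at a fold enrichment of 5.58. The shared site from 81.1 to 82.5 kb reached 9.20 and 8.93 in animals 7 and 9. The main H3K27ac site also had PolII_S5P peaks in all 3 animals, at 3.63, 6.88 and 4.46 fold. Over the window, PolII_S5P and H3K4me1 lay together: a PolII_S5P peak overlapped 9 of 15 H3K4me1 peaks in animal 5, 22 of 23 in animal 7 and 15 of 17 in animal 9.

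MBD3 at Snap25 was limited to few sites, of which the strongest had high fold enrichment. It had 9, 7 and 4 peaks covering 4.11%, 3.89% and 2.16% of the window. The strongest reached a fold enrichment of 15.7, 19.3 and 17.2 and ranked 2371, 1006 and 1006, at 81.5, 85.5 and 85.5 kb. By −log10 q-value the leading MBD3 peak ranked lower, at 5349, 3933 and 2171, and in animal 5 it lay at 8.97 kb. The median fold enrichment in the window was 8.29, 8.80 and 9.85, above the whole lists in each animal. MBD3 sites shared by all 3 animals numbered 4 of 10, at 8.77 to 9.70, 10.1 to 10.6, 81.0 to 81.7 and 85.3 to 85.7 kb. The first pair lay in the main H3K27ac site and the second pair in or at the H3K27ac sites near the far end. Those at 80.7 to 83.8 kb and 85.5 to 86.6 kb also had PolII_S5P and H3K4me1 peaks in all 3 animals.

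**Figure D2:**
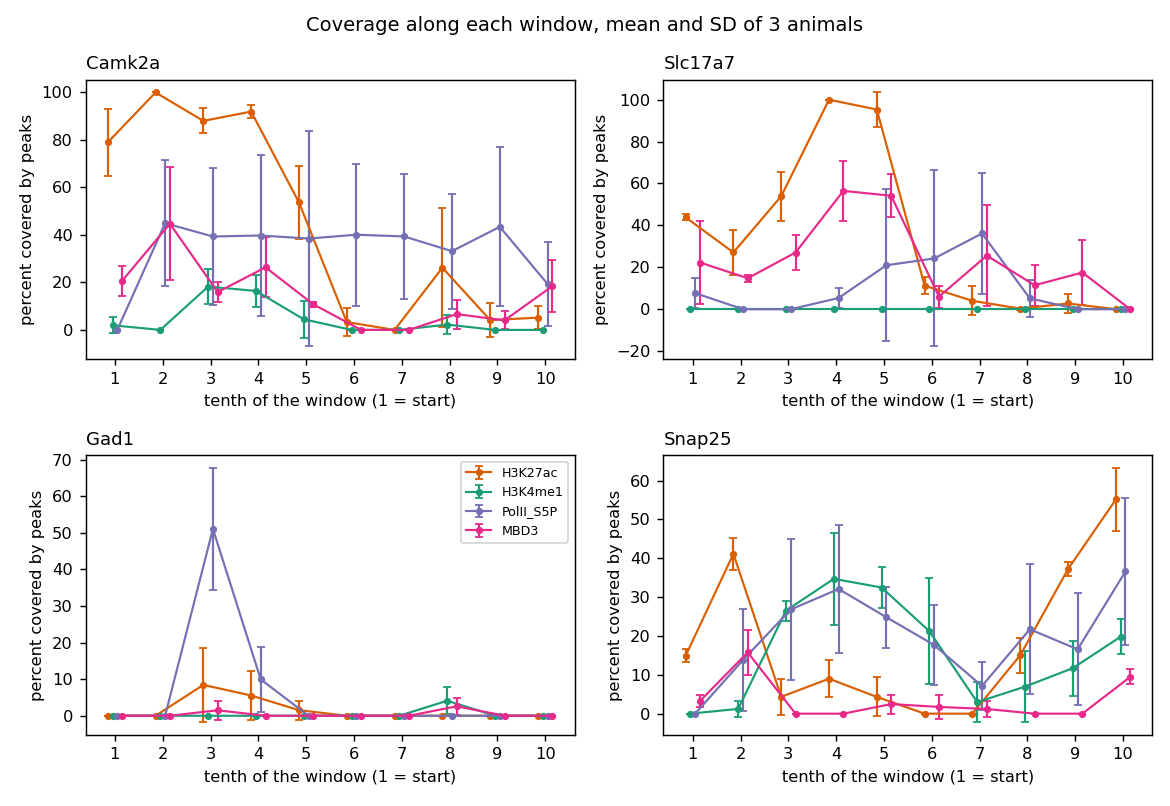
Percent of each of 10 equal bins of a window that is covered by peaks, as the mean and SD of 3 animals, for 4 antibodies. H3K27ac covers the second bin of Camk2a and the fourth bin of Slc17a7 completely, and in Snap25 H3K4me1 is highest in the middle where H3K27ac is low; SD bars can reach below 0.

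TDG had no peak in any window in any animal. Its lists held 130, 256 and 957 peaks, and the nearest TDG peak in animal 9 was 32.3 kb outside the Snap25 window, 179 kb from Slc17a7, 289 kb from Gad1 and 557 kb from Camk2a. In animals 5 and 7 the nearest TDG peaks lay megabases away, and animal 5 had none on the chromosome of Camk2a. Few windows anywhere held TDG: a TDG peak in all 3 animals was found in 0.139% of genome tiles of the Camk2a length, 0.057% for Slc17a7, 0.124% for Gad1 and 0.159% for Snap25. In single lists the share of tiles with a TDG peak was larger, at most 2.70%, in animal 9 for the Snap25 length. The absence at 4 windows is therefore what most tiles of each list show.

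The other antibodies can be read against the same background, which is the share of consecutive tiles with a peak in all 3 animals. The tiles include gene-poor sequence, so an active gene is set against the genome and not against other genes. Camk2a had peaks of 4 antibodies in all 3 animals, where tiles of its length had them in 41.4% for H3K27ac, 20.8% for H3K4me1, 7.26% for PolII_S5P and 43.9% for MBD3. Snap25 had them for the same 4 antibodies, against 42.5% for H3K27ac, 21.8% for H3K4me1, 7.65% for PolII_S5P and 45.4% for MBD3. Slc17a7 had them for H3K27ac, where 25.3% of tiles did, for MBD3, where 25.8% did, and for PolII_S5P, where 3.11% did, and lacked H3K4me1, present in 10.3% of tiles. Gad1 had them for PolII_S5P alone, against 6.17%, and lacked H3K27ac (37.9% of tiles), H3K4me1 (18.2%) and MBD3 (40.3%) in at least 1 animal. PolII_S5P was the rarest of the 4 antibodies among tiles and the only one at all 4 genes in every animal.

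**Figure D3:**
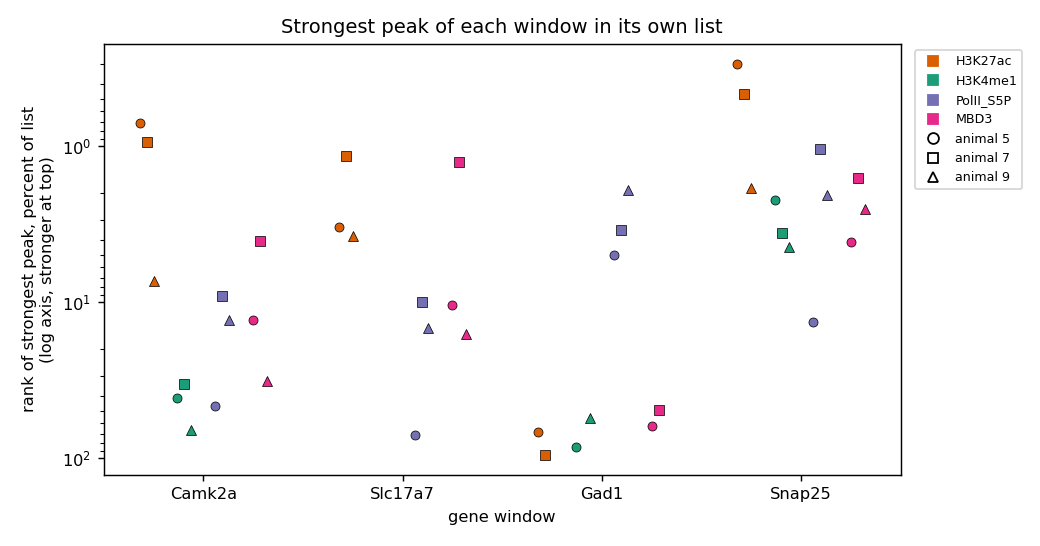
Rank of the strongest peak by fold enrichment in its own list, in percent of the list on a log axis with the strongest at the top, for each gene, antibody and animal. Windows with no peak have no point; Snap25 H3K27ac and Gad1 PolII_S5P lie within the top 5%, and Gad1 H3K27ac lies at 67.9% and 96.1%.

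Within each list the 4 genes could be ordered by their strongest peak, but the order depended on the measure. By fold enrichment, in H3K27ac Snap25 came first in all 3 animals, Camk2a and Slc17a7 exchanged places in animal 9, and Gad1 was last or absent. In MBD3 Snap25 came first in animals 5 and 9 and Slc17a7 in animal 7, at 790 against 1006. In PolII_S5P Gad1 came first in animals 5 and 9 and Snap25 in animal 7, and both preceded Camk2a and Slc17a7 in every animal. Ranked instead by the authors' −log10 q-value, H3K27ac had Camk2a before Snap25 in animal 7, at 388 against 522, and Snap25 first in animals 5 and 9. By that measure MBD3 had Slc17a7 first in animal 5, at 1102 against 5349 for Snap25, and in animal 7, at 315, and Snap25 first in animal 9. In PolII_S5P Snap25 stood at 1670, 1234 and 2042, behind Camk2a in animals 5 and 9 and behind Slc17a7 in animals 7 and 9. The strongest Gad1 PolII_S5P peak by q-value was at 370, 909 and 640, ahead of the other 3 genes in every animal, in animal 9 narrowly so beside Camk2a at 656. Gad1 thus stood high in the polymerase lists, and in the H3K27ac lists of the same animals it came last of the 4 genes or was absent by either measure.

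To compare antibodies whose lists differ in length, coverage of a window was divided by coverage of the genome, with 0.1 percentage points added to both, on the log2 scale. Camk2a reached 4.19 ± 0.12 for H3K27ac, 2.25 ± 0.52 for H3K4me1, 6.34 ± 0.94 for PolII_S5P and 3.55 ± 0.27 for MBD3 (mean ± SD, n = 3 animals throughout). Slc17a7 reached 3.78 ± 0.09, −3.07 ± 0.54, 4.15 ± 1.37 and 4.21 ± 0.29 in the same order. Gad1 reached −1.74 ± 2.45, −1.19 ± 2.16, 4.29 ± 0.35 and −1.69 ± 1.16, and Snap25 reached 2.89 ± 0.12, 4.22 ± 0.30, 5.78 ± 0.48 and 1.52 ± 0.07. PolII_S5P had the highest mean at Camk2a, Gad1 and Snap25. The highest value possible depends on genome coverage, on average 2.37% for H3K27ac and 0.226% for PolII_S5P, so PolII_S5P could reach higher values. In percent of the window, H3K27ac covered more than PolII_S5P at Camk2a, with means of 45.1% and 33.8%. It covered less at Gad1, 1.55% against 6.10%, and at Snap25, 18.1% against 19.7%. The antibody differences tested below share this limit. Values for a window without a peak are set by the 0.1 points and the genome coverage alone.

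**Figure D4:**
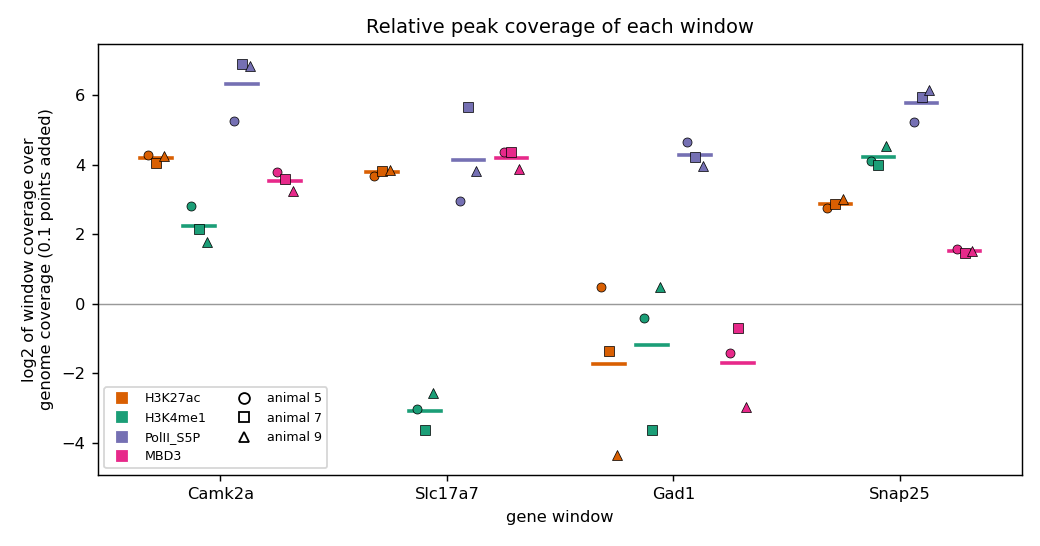
Log2 of window coverage over genome coverage, with 0.1 percentage points added to both, for each gene and antibody. Symbols are animals, horizontal bars are means of 3 animals, and 0 marks equal coverage of window and genome; the 3 PolII_S5P values of Gad1 lie between 3.97 and 4.66 and its other values at or below 0.50.

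The share of variance among the 12 libraries that lay between the 4 antibodies (eta squared) was tested by permuting antibody labels 100000 times, one-sided, with Benjamini-Hochberg adjustment over the 4 genes. It was 0.913 for Camk2a (permutation adjusted p = 0.0001) and 0.978 for Snap25 (permutation adjusted p = 0.0001), and the 3 animals of any antibody did not overlap those of another in 6 of 6 pairs at both genes. It was 0.962 for Slc17a7 (permutation adjusted p = 0.0169), with 4 of 6 pairs apart, and 0.761 for Gad1 (permutation adjusted p = 0.0169), with 3 of 6 pairs apart. With labels permuted within each animal, as a replicate block, the adjusted p was 0.00396 for Camk2a and Snap25 and 0.0575 for Slc17a7 and Gad1, so the call at these genes was lost. Leaving out any 1 animal ended it too, with a permutation adjusted p of 0.0511 to 0.125 for Slc17a7 and 0.0862 to 0.125 for Gad1. Eta squared was then 0.957 to 0.991 for Slc17a7 and 0.793 to 0.874 for Gad1. Fewer libraries allow fewer label orders, and the permutation adjusted p of Camk2a and Snap25 also rose, to 0.0198, but these genes kept the call. The number of label orders therefore did not by itself end the call at Slc17a7 and Gad1. With all animals their eta squared was 0.962 and 0.761, so the lost call came with no clear fall in eta squared. At Gad1 the 3 pairs apart were those of PolII_S5P with each other antibody, and at Slc17a7 3 of the 4 were those of H3K4me1. How often antibodies lie apart in this way at other genome tiles was not computed. These counts therefore do not show a trait particular to the 4 genes. Lists of MBD3 and TDG name unplaced sequences differently from the other lists, and that difference in processing cannot be told apart from the antibody.

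Across the 4 windows together, peaks of different antibodies met more or less often than in the whole lists, depending on the pair. A PolII_S5P peak overlapped 28.6%, 71.8% and 56.3% of the H3K27ac peaks of animals 5, 7 and 9, against 3.81%, 16.3% and 12.4% over the whole lists. A PolII_S5P peak overlapped 46.2%, 93.5% and 85.0% of the H3K4me1 peaks, against 1.37%, 6.72% and 5.82%. Both shares exceeded the whole list in every animal, and most of the H3K4me1 peaks were at Snap25, with 55 of 77. H3K27ac overlapped 76.1%, 79.1% and 78.3% of MBD3 peaks, against 61.8%, 59.7% and 59.7%.

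Shares for 3 other pairs lay below the whole lists in every animal. MBD3 overlapped 35.7%, 46.2% and 31.3% of H3K27ac peaks, against 47.7%, 49.1% and 37.4%. H3K27ac overlapped 53.3%, 47.7% and 34.6% of PolII_S5P peaks, against 60.9%, 61.2% and 59.7%, and MBD3 overlapped 33.3%, 26.7% and 14.8% of them, against 53.8%, 53.2% and 44.8%. H3K4me1 overlapped 26.2%, 41.0% and 28.1% of H3K27ac peaks, against 25.8%, 32.4% and 19%, with the least difference in animal 5. Genes differed within these sums. Pooled over animals, MBD3 met 13 of 17 H3K27ac peaks at Slc17a7 and 18 of 28 at Camk2a. It met 12 of 63 at Snap25 and 0 of 5 at Gad1. At Slc17a7 the counts were 5 of 5, 7 of 7 and 1 of 5 in animals 5, 7 and 9. In animal 9 the share at Slc17a7, 20%, was thus near the 15.8% at Snap25. Peaks of 1 window share a locus and a domain, so these shares are descriptions without a test.

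**Figure D5:**
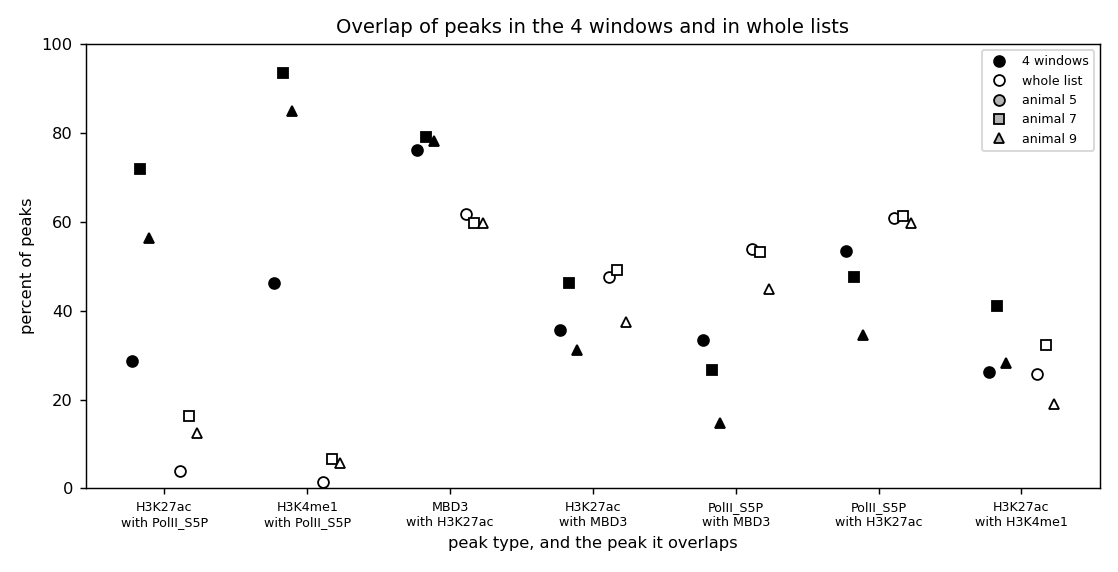
Percent of peaks of the first antibody that overlap a peak of the second by at least 1 bp in the same animal, for peaks in the 4 windows (filled) and in whole lists (open); symbols are animals. Overlap with PolII_S5P is higher in the windows in every animal, and overlap of PolII_S5P peaks with MBD3 or H3K27ac is lower.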

How the data were processed

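ChIP-seq peak lists of 15 libraries (5 antibodies, 3 animals) were analysed, and the 3 inputs were not analysed here. The submitters' processing notes list MACS2 2.2.7.1, which calls peaks, and the mouse build mm39, beside Picard 2.18.29, SAMtools 1.16.1, Trim Galore 0.6.7 and bcl2fastq 2.20. The aligner, and whether the inputs served as control, are not given in the sources used. The authors deposited 1 list per library, each peak with a fold enrichment (a ratio of signal to background), a −log10 q-value and, as another number, the offset of its summit in bp. Fold enrichment served only for ranks and descriptions inside a list. The depth in reads is unknown, so the number of listed peaks alone bears on precision.

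Computed here were peaks per window (overlap of at least 1 bp), covered bases, ranks, merged sites, shares of overlapping peaks and coverage relative to chromosomes 1 to 19, X and Y, with Python 3.11.15, numpy 2.4.6, pandas 2.3.3 and matplotlib 3.10.9. Tiles ran from position 1 to the outermost peak of a chromosome. All 4 genes are described, with the strongest peak of each antibody and sites shared by all animals named by position. The genes, windows and lists were chosen with earlier results of these data known. The pairs with MBD3, PolII_S5P or H3K4me1 as the first antibody, the bins, widths and distances were added after seeing the data. Overlap and permutation code was tested on simulated lists.

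Per the labels, libraries with equal numbers are from 1 animal, which pairs them. Deviations from antibody means correlated at 0.22 on average (range −0.269 to 0.663, 18 comparisons) within animals and −0.109 between animals. Each antibody mean was taken over these same animals, so the deviations of an antibody cancel out. That ties the between-animal value to the within-animal value with the opposite sign. The contrast between the values therefore cannot show whether libraries are paired, and the pairing rests on the labels alone. Alternatives covered the q-value threshold, list length, window edges, merging, overlap rule, pseudocount, single animals and the block. Steps that need an mm39 annotation (nearest gene starts, promoters of other cell types) were not run.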

Additional observations from a re-analysis of the deposited data

How the results depend on the processing

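The permutation test for Camk2a and for Snap25 stayed past the threshold in 12 of 12 alternatives (adjusted p up to 0.0198). The order of the antibodies was not compared across alternatives. Leaving out 1 animal gave an eta squared of 0.957 to 0.991 for Slc17a7 (permutation adjusted p 0.0511 to 0.125) and 0.793 to 0.874 for Gad1 (permutation adjusted p 0.0862 to 0.125), so both lost the call whichever animal was left out. Camk2a and Snap25 kept the call with as few libraries, so the smaller number of label orders did not by itself end it. Without 1 animal, eta squared was not clearly below the 0.962 and 0.761 of all animals. With the replicate block, eta squared stayed 0.962 and 0.761 with an adjusted p of 0.0575 for both. A pseudocount of 0.01 gave 0.599 for Gad1 (permutation adjusted p = 0.0554). Over all alternatives the adjusted p ran from 0.00616 to 0.125 for Slc17a7 and from 0.005 to 0.125 for Gad1.

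H3K4me1 covered 2.60% of the windows when peaks under a −log10 q of 5 were dropped, 5.01% with the lists of the antibody shortened to equal length and 3.52% with the lists of an animal shortened to equal length, in place of 6.54 ± 1.41%. The last setting gave 14.6% for H3K27ac in place of 24.0 ± 3.17% and 1.71% for MBD3 in place of 8.48 ± 3.63%, and left Gad1 with 0 peaks of H3K27ac, H3K4me1 and MBD3. The share of H3K27ac peaks with MBD3, 37.7%, became 18.3% by the summit rule and 7.57% when 0.5 of the peak had to be covered. The whole lists fell as well, from 44.7% to 30.1% and 19.9%. The share with H3K4me1, 31.8%, became 21.2% and 20.4% under these rules, where the whole lists gave 16.9% and 14.7%. It became 10.3% with a −log10 q of at least 5, where the whole lists gave 11.3% and the order turned. With the lists of an antibody shortened, PolII_S5P covered 9.67% in place of 19.4 ± 13.6%. Ranks by −log10 q-value in place of fold enrichment changed 5 of 15 rank values. Of 196 values for peak counts, 165 stayed within the limit set for a change. The unknown depth limits what the absence of a peak says, above all for TDG. The causes were not tested.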
